A study of Mus musculus with 36 samples.

Results

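Expression of 10 pyrimidine salvage enzymes was described in bulk RNA-sequencing libraries of 36 mouse tumours. The genes were taken by name, though with earlier results of these data known, and they are Cda, Dctd, Upp1, Tymp, Uck1, Uck2, Uckl1, Dck, Tk1 and Tk2. The study itself picked CDA from a meta-analysis that included its own mouse RNA-sequencing data. All 10 were found among the 37417 genes of the count table, and all 10 had a mean of at least 1 CPM, as 14125 genes of the table did. CPM is the count of a gene per 1000000 counts over all genes of its library. The question was whether the pattern of Cda, the enzyme the study is about, was shared by the other salvage enzymes.

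The tumours grew under the skin of wild-type mice labelled as 12 weeks old, while the study's methods give a younger age. Libraries labelled MC38 (a colon carcinoma line) and PancO2 (a pancreatic carcinoma line) are labelled with the strain C57BL/6J, and those labelled CT26 (a colon carcinoma line) with BALB/c. Mice of each model received control IgG, anti-PD-1 or anti-CTLA4 antibody at 10 mg/kg into the peritoneum, and tumours were taken at the end stage. This gave 9 labelled groups of 4 mice, with 1 library per mouse. Each model is 1 transplanted cell line, so host cells and tumour cells were sequenced together. In such bulk samples fewer cells of a type and less RNA per cell cannot be told apart.

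The labels did not match the libraries. H2-Ea-ps, the gene of an MHC class II chain that BALB/c mice make and C57BL/6 mice do not, exceeded 10 CPM in 4 of 12 libraries of each labelled model. The libraries were therefore described by class. The 12 libraries called H2-Ea-positive had 32.8 to 134 CPM of H2-Ea-ps, against at most 0.0845 CPM in the others. The 12 libraries called Cp-high had more than 1000 CPM of Cp, the gene of the copper-carrying plasma protein ceruloplasmin, with 1389 to 2168 CPM against at most 611 CPM in the others. The remaining 12 are called double-negative. Class names state only these 2 genes, not a cell line. Cp-high libraries were labelled MC38 in 4 cases, CT26 in 3 and PancO2 in 5, and double-negative libraries in 4, 5 and 3. Because classes come from the data, no test was run between them. Libraries held 7883106 to 41751023 counts assigned to genes. The shallowest, labelled PancO2 anti-PD-1 71 and H2-Ea-positive, stood apart: 15.7% of its counts were mitochondrial, against 2.80% to 4.35% elsewhere, and it had 19 counts of Cda. Most results that rest on it are given with and without it, but the shares of variance are not.

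Pyrimidine nucleosides are set free when RNA and DNA are broken down, and salvage returns them to the nucleotide pool without synthesis from small precursors. Kinases add a phosphate to uridine, cytidine, deoxycytidine or thymidine, which traps the nucleoside in the cell. Deaminases turn cytosine compounds into uracil compounds, and phosphorylases split uridine or thymidine into base and sugar phosphate. Cda, which turns cytidine and deoxycytidine into uridine and deoxyuridine, also inactivates cytidine drugs such as gemcitabine, and so is well known in pancreatic cancer.

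On the GRCm38 build Cda lies on chr4:138338424-138367992 (minus strand), Dctd on chr8:48099092-48153233 (plus strand), Upp1 on chr11:9118103-9136170 (plus strand) and Dck on chr5:88764996-88783281 (plus strand). All 10 are annotated as protein coding. Exon models of Tymp share 42.02% of their length with Sco2 and 26.3% with Ncaph2, the latter at a mean of 198 CPM, and those of Uckl1 share 9.92% with the antisense gene Uckl1os. Levels of Tymp and Uckl1 are therefore uncertain.

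The 150 bases before the outermost start annotated by RefSeq are shown for Cda and Upp1, because Upp1 had the steepest slope on Cda described below. They are RefSeq sequence of GRCm38.p6, printed 5′ to 3′ on the gene's strand, at chr4:138367993-138368142 (minus strand) and chr11:9117858-9118007 (plus strand). Capitals mark a GC box, GGGCGG or its reverse complement CCGCCC. RefSeq has 3 start windows for Upp1, and the outermost start lies upstream of the gene model's start given above. It is shown as an example, because gene counts do not tell which start was used.
Cda: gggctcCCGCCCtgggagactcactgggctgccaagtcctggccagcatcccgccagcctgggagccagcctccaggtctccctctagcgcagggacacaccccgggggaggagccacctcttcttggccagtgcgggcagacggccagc
Upp1: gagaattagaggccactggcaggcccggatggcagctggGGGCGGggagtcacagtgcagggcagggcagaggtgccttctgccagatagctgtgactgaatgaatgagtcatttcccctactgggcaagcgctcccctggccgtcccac
Each window held 1 GC box, and 28.6% of 32851 windows of the same length held at least 1. GC content was 71.3% for Cda and 62.7% for Upp1, against a median of 54% over all windows. The other 6 motifs were searched on both strands, and none was in either window. Of all windows, 7.57% held a TATA box (TATAAA), 24.5% a CCAAT box (CCAAT), 4.30% an E-box of the form CACGTG, 0.718% an E2F site (TTTNGCGC), 1.59% a core of the interferon-stimulated response element and 4.09% a STAT site (TTCNNNGAA). These are letter matches, not binding sites.

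Per kilobase of exon and over all 36 libraries together, Upp1 was the most abundant member and Tymp the least. The median level over all 36 libraries was 35.3 CPM per kb for Upp1, 15.98 for Uck2, 15.5 for Dck, 14.1 for Tk1, 13.5 for Uck1, 8.50 for Uckl1, 8.14 for Tk2, 7.49 for Dctd, 6.43 for Cda and 1.98 for Tymp. Cda, the gene the study chose, was thus 1 of the less abundant salvage transcripts when the classes were pooled. This did not hold in the Cp-high class. Its median of Cda was 13.8 CPM per kb, below Tk1 (15.5) and Uck1 (14.4) and above the other members, with Upp1 at 9.02. In H2-Ea-positive and double-negative libraries the median of Cda was 5.42 and 4.49 CPM per kb.

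Cda was highest in the Cp-high libraries, and its level was low and close in the other classes. It was 9.11 CPM in the lowest, 14.3 in the median and 21.3 in the highest Cp-high library. The H2-Ea-positive libraries had 2.41, 5.61 and 8.43 CPM, and the double-negative libraries 3.04, 4.65 and 9.36 CPM. The lowest H2-Ea-positive value is the library with 19 counts of Cda, and without it the lowest was 4.96 CPM. The Cp-high median was 2.55 times that of the H2-Ea-positive libraries, with no overlap, and 3.08 times that of the double-negative libraries, with 1 double-negative library above the lowest Cp-high library. The H2-Ea-positive and double-negative ranges overlapped, with medians in a ratio of 1.21. Of 14123 genes, 19.5% were higher and 12.2% lower in Cp-high than in H2-Ea-positive libraries with no overlap, or 22.7% and 17.4% without the shallow library. The separation of Cda was thus of a kind that many genes showed, and 17.01% of genes had a ratio as large in either direction. It was lost on another scale: after scaling by trimmed mean of M values (TMM) the lowest Cp-high library had 8.56 CPM and the highest H2-Ea-positive library 9.14 CPM, with a ratio of medians of 2.42.

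**Figure D1:**
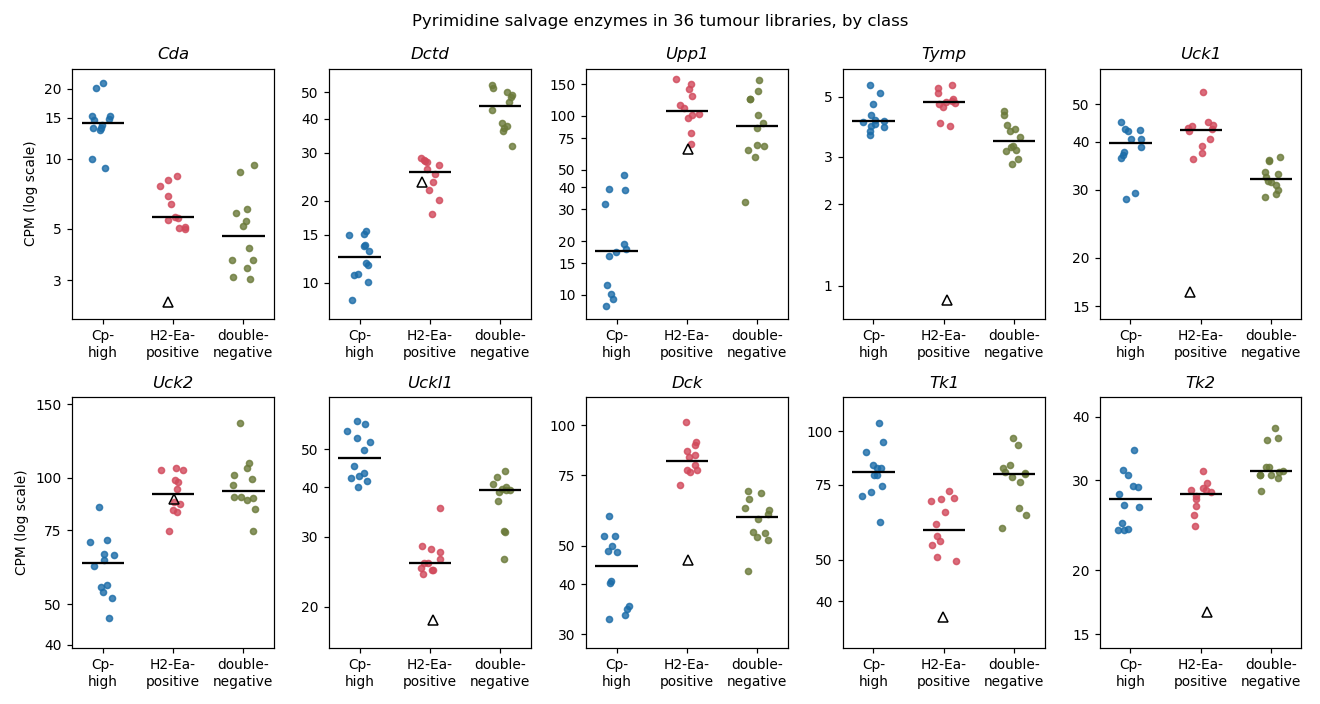
CPM of each of the 10 salvage enzymes (log axis) in 36 libraries, 1 point per library, by class, with a line at the median. Cda is highest in the Cp-high class, Upp1 and Dctd are lowest there, and Tymp overlaps in all 3 classes.

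Dctd, which deaminates dCMP to dUMP and so acts on the same base as Cda but on the nucleotide, ran opposite to Cda. It was 8.67, 12.4 and 15.5 CPM (lowest, median and highest) in Cp-high libraries, 17.9, 25.5 and 28.6 CPM in H2-Ea-positive libraries and 31.8, 44.5 and 53.1 CPM in double-negative libraries. No pair of classes overlapped. Dctd was the only member of which this held, as it did for 575 of 14123 genes, or 4.07%. The double-negative median was 3.57 times the Cp-high median and 1.74 times the H2-Ea-positive median. Against this, 14.7% of genes were higher and 16% lower in Cp-high than in double-negative libraries with no overlap, and 9.12% were higher and 17.7% lower in H2-Ea-positive than in double-negative libraries, or 13.6% and 20.9% without the shallow library.

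Upp1, the phosphorylase that splits uridine into uracil and ribose 1-phosphate, was also low where Cda was high. Cp-high libraries had 8.66, 17.7 and 46.7 CPM, H2-Ea-positive libraries 65.6, 106.9 and 159.6 CPM, and double-negative libraries 32.9, 88.2 and 157 CPM. The Cp-high and H2-Ea-positive ranges did not overlap and their medians differed 6.04-fold, while the double-negative range began below the highest Cp-high library. Upp1 per kb of exon was 0.653 times Cda per kb at the median of the Cp-high libraries (0.397 to 1.51). The same ratio was 9.82 (7.40 to 14.4) in H2-Ea-positive and 10.6 (4.08 to 22.6) in double-negative libraries. In Cp-high tumours the transcripts of the deaminase and the uridine phosphorylase were thus at near levels, and elsewhere Upp1 exceeded Cda in every library. Tymp, the thymidine phosphorylase, was low, with ranges that overlapped in every pair of classes. It was 3.60 to 5.52 CPM in Cp-high, 0.888 to 5.52 CPM in H2-Ea-positive (3.89 without the shallow library) and 2.82 to 4.41 CPM in double-negative libraries.

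**Figure D2:**
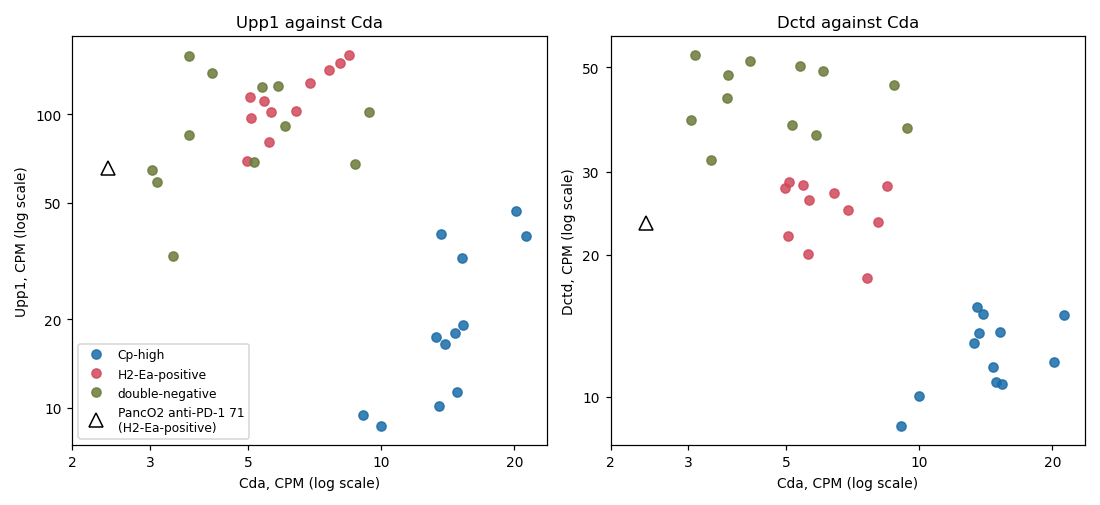
Cda against Upp1 and against Dctd in CPM (log axes), 1 point per library, marked by class. The Cp-high libraries lie at high Cda with low Upp1 and low Dctd, and Dctd parts all 3 classes.

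Of the uridine and cytidine kinases, only Uckl1, a relative of Uck1 and Uck2, had its highest median in the Cp-high class. Uckl1 was 40.02, 47.5 and 58.7 CPM in Cp-high, 18.5, 25.7 and 35.5 CPM in H2-Ea-positive and 26.4, 39.3 and 44.0 CPM in double-negative libraries. Its Cp-high and H2-Ea-positive ranges did not overlap, with a ratio of medians of 1.85. Uck2, the kinase of uridine and cytidine that dividing cells use, ran the other way, at 46.3, 62.8 and 85.2 CPM in Cp-high, 74.6, 91.6 and 105.6 CPM in H2-Ea-positive and 74.7, 93.1 and 135 CPM in double-negative libraries, with ranges that overlapped. After TMM scaling its Cp-high and H2-Ea-positive ranges no longer met, at 77.1 against 80.8 CPM. Uck1, the other enzyme of this pair, had medians of 39.7, 42.9 and 32.1 CPM, with overlap in each pair of classes. Its range was 28.4 to 44.9 CPM in Cp-high, 16.4 to 53.8 CPM in H2-Ea-positive (from 36.04 CPM without the shallow library) and 28.7 to 36.6 CPM in double-negative libraries.

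The deoxynucleoside kinases did not share the class order of Cda either. The median of Tk1 was also highest in Cp-high libraries, but close to that of double-negative libraries. Dck, which phosphorylates deoxycytidine and competes with Cda for it, was 32.7, 44.5 and 59.3 CPM in Cp-high libraries. It was 45.9, 81.4 and 102 CPM in H2-Ea-positive and 43.2, 59.1 and 68.4 CPM in double-negative libraries. Without the shallow library the lowest H2-Ea-positive value was 71.1 CPM, and Dck in that class then lay above both other classes, the Cp-high median being 0.533 of its own. Tk1, the cytosolic thymidine kinase that rises in S phase, had medians of 80.4, 58.6 and 79.6 CPM, with ranges of 61.1 to 104 CPM, 36.7 to 72.3 CPM (from 49.8 CPM without the shallow library) and 59.2 to 96.2 CPM. Tk2, its mitochondrial counterpart, had medians of 27.6, 28.2 and 31.3 CPM, with ranges of 23.95 to 34.5 CPM, 16.6 to 31.3 CPM (from 24.5 CPM without it) and 28.6 to 37.9 CPM. Ranges of Tk1 and of Tk2 overlapped in every pair of classes.

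Cda thus shared its order of classes with no other member. Class medians of Cda ran from Cp-high through H2-Ea-positive to double-negative, the order of 14.6% of genes. Uckl1 and Tk1 ran Cp-high, double-negative, H2-Ea-positive (21.4% of genes). Upp1 and Dck ran H2-Ea-positive, double-negative, Cp-high (17.5%), and Uck1 and Tymp H2-Ea-positive, Cp-high, double-negative (12.0%). Uck2, Tk2 and Dctd ran double-negative, H2-Ea-positive, Cp-high (16.1%). The order of close classes rested on the scale: Cp-high and double-negative changed places for Tk1 after TMM scaling (log2 ratio −0.05), and H2-Ea-positive and double-negative for Uck2 after TMM scaling (0.065), with DESeq2 size factors (0.13), without mitochondrial genes (0.056) and without the shallow library (0.014). The non-overlapping members of Cp-high against H2-Ea-positive libraries were 4, Cda and Uckl1 higher and Upp1 and Dctd lower, beside 19.5% of genes higher and 12.2% lower. Dck joined them without the shallow library and made 5, after TMM scaling Uck2 joined and Cda dropped out, and with DESeq2 size factors Cda dropped out. Dctd was the 1 such member of Cp-high against double-negative libraries (14.7% of genes higher, 16% lower). It was also the 1 such member of H2-Ea-positive against double-negative libraries (9.12% and 17.7%), where Dck made 2 without the shallow library, at a ratio of medians of 1.41 (13.6% and 20.9%).

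**Figure D3:**
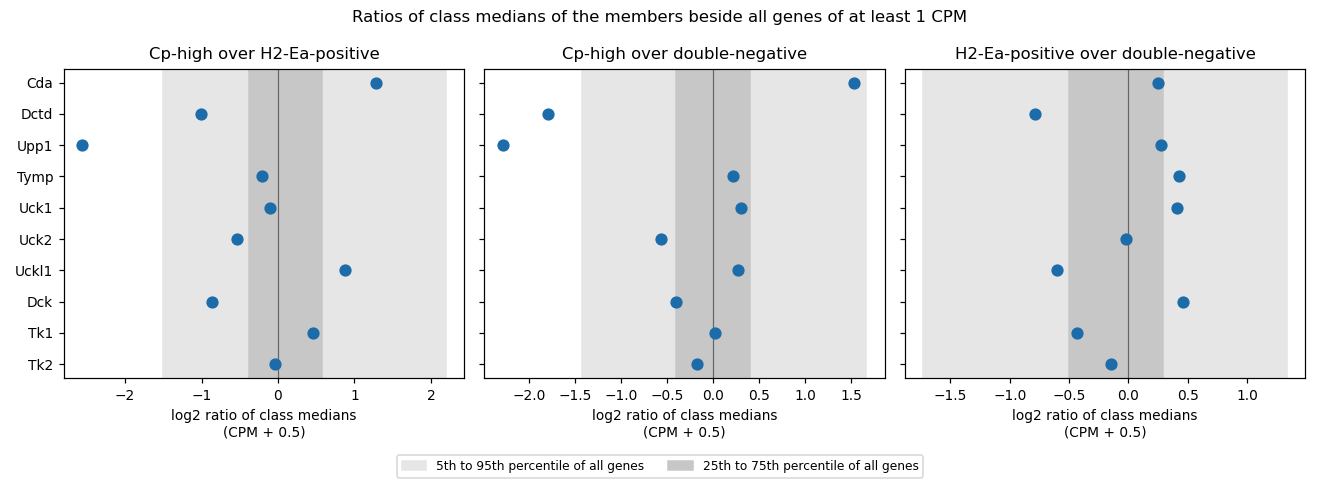
Log2 ratio of class medians (CPM plus 0.5) for the 10 members in each pair of classes, with bands for the 5th to 95th and the 25th to 75th percentile of all genes. Cda and Upp1 lie on opposite sides of 0 in both comparisons with the Cp-high class.

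Class membership carried most of the spread of several members, and the labels carried little. The share of variance in log2 CPM that lay between classes was 91.2% for Dctd, 76.5% for Uckl1, 75.4% for Upp1, 71.4% for Cda, 68.2% for Uck2 and 66.9% for Dck. It was 46.7% for Tk1, 30.7% for Tk2, 17.5% for Uck1 and 9.34% for Tymp, with a median of 65.5% over all genes. These shares include the shallow library, which had the lowest Tymp, Uck1, Tk1 and Tk2, and were not computed without it. The SD of H2-Ea-positive libraries was 1.22 CPM for Tymp and 8.83 CPM for Uck1, and 0.507 and 4.72 CPM without it. How far the low shares rest on that library is therefore not known. Between the 9 labelled groups it was 10.4% for Cda, against a median of 13.5%.

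Other pyrimidine genes differed between the classes too. Lists of 12 other salvage and nucleotide kinase genes, 10 genes of de novo and deoxynucleotide synthesis, 10 of breakdown and 7 nucleoside transporters were read the same way, and the genes named in this paragraph were chosen after their values were seen. Slc29a1, which encodes the equilibrative nucleoside transporter ENT1, was higher in Cp-high than in both other classes with no overlap. So were the nucleotidases Nt5c and Nt5c2, the mitochondrial deoxyguanosine kinase Dguok, the second uridine phosphorylase Upp2, and Dut, the dUTPase. Of all genes, 19.5% were higher in Cp-high than in H2-Ea-positive libraries with no overlap, and 14.7% higher than in double-negative libraries. Class medians (Cp-high, H2-Ea-positive, double-negative) were 142, 79.2 and 63.8 CPM for Slc29a1 and 184, 101 and 109.6 CPM for Dut. Those of Nt5c2 were 78.2, 50.3 and 45.1 CPM and those of Upp2 2.94, 0.879 and 1.20 CPM. Slc29a1 was 1 of 5 expressed transporters, and Slc29a2 (7.37, 12.5 and 7.52 CPM) and Slc28a2 (5.82, 10.7 and 6.02 CPM) had their highest median in H2-Ea-positive libraries. Of the 10 genes of de novo and deoxynucleotide synthesis, 4 were lower in Cp-high than in double-negative libraries with no overlap (Cad, Dhodh, Ctps and Tyms) and 1, Dut, was higher, beside 16% of all genes lower and 14.7% higher. Ctps, which makes CTP from UTP, had class medians of 55.7, 123 and 154 CPM, and Umps, which makes UMP, 54.3, 58.6 and 56.2 CPM. Levels of cell-type markers moved with the classes as well. Because the lines are carcinomas, the epithelial markers need not come from host cells. The sum of 5 epithelial markers was 577 to 1186 CPM in Cp-high, 8.80 to 43.7 CPM in H2-Ea-positive and 64.4 to 430 CPM in double-negative libraries. That of 9 T cell markers was 58.7 to 183, 24.4 to 57.99 and 8.76 to 114 CPM, and that of 10 fibroblast markers 3345 to 6606, 1983 to 4006 and 5720 to 12990 CPM. Fibroblast genes did not move as 1 group: class medians were 670, 411 and 4232 CPM for Col3a1 but 2313, 183 and 794 CPM for Dcn. The sum of 10 macrophage markers was 1152 to 1989, 899.5 to 1798 and 1795 to 2695 CPM. Mrc1 (55.6, 264 and 309.7 CPM) and Msr1 (50.4, 216 and 181 CPM) were lower in Cp-high than in both other classes with no overlap. Of all genes, 12.2% were lower in Cp-high than in H2-Ea-positive libraries with no overlap, and 16% lower than in double-negative libraries. Macrophage genes did not move as 1 group either: C1qb (375, 142 and 317 CPM) was higher in Cp-high than in H2-Ea-positive libraries with no overlap. Medians of C1qa, C1qc, Csf1r and Adgre1 were also higher in that comparison, with overlap. C1qa, C1qb, C1qc, Csf1r and Mertk were lower in H2-Ea-positive than in double-negative libraries with no overlap, beside 17.7% of all genes. The part of these genes and markers in the class levels of Cda, Upp1 and Dctd was not tested.

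By label, Cda did not differ beyond the spread within the labelled groups. Each group held libraries of 2 or 3 classes, so that spread includes the differences between classes. Overlap of the groups therefore cannot show that Cda was unchanged by model or treatment. Libraries labelled IgG had 3.68, 5.64, 6.41 and 15.3 CPM in MC38, 3.68, 4.14, 6.90 and 9.98 CPM in CT26 and 5.85, 7.61, 9.36 and 14.7 CPM in PancO2. Under anti-CTLA4 the values were 5.04, 5.15, 5.38 and 20.2 CPM in MC38, 5.58, 8.43, 8.74 and 13.6 CPM in CT26 and 4.96, 6.05, 13.5 and 14.9 CPM in PancO2. Under anti-PD-1 they were 3.04, 5.08, 9.11 and 15.2 CPM, 3.11, 3.38, 5.44 and 13.9 CPM, and 2.41, 8.08, 13.3 and 21.3 CPM. All 9 groups overlapped, and in each the highest library was of the Cp-high class. As mean and SD, Cda under IgG was 7.77 ± 5.18 CPM in MC38, 6.17 ± 2.91 in CT26 and 9.38 ± 3.82 in PancO2 (mean ± SD, n = 4 each). Under anti-CTLA4 it was 8.94 ± 7.51, 9.09 ± 3.34 and 9.85 ± 5.06 CPM, and under anti-PD-1 8.11 ± 5.37, 6.47 ± 5.09 and 11.3 ± 8.02 CPM.

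**Figure D4:**
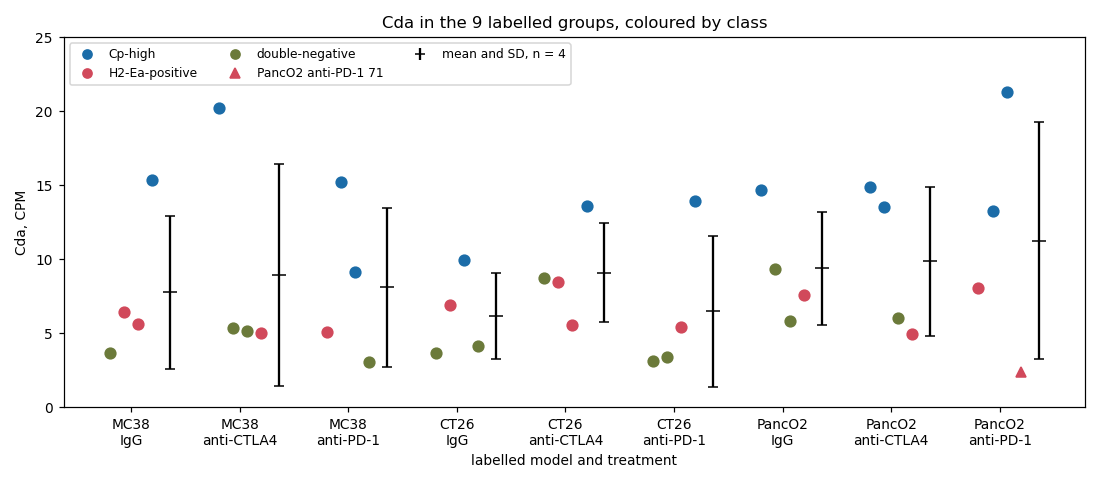
Cda in CPM in the 9 labelled groups, 4 libraries each, marked by class, with mean and SD. The highest library of every group is Cp-high, and the groups overlap.

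In a quasi-likelihood test by edgeR (Benjamini-Hochberg adjusted) over 16510 genes, 0 genes (0%) passed an adjusted p of 0.05 between any 2 models under IgG. Unadjusted p was under 0.05 for 93 genes in PancO2 against MC38, 98 in PancO2 against CT26 and 83 in CT26 against MC38. The same test within each model called 0 genes (0%) for anti-PD-1 or anti-CTLA4 against IgG, with 61 and 25 genes under an unadjusted p of 0.05 in MC38, 54 and 86 in CT26 and 912 and 80 in PancO2. No member was under an unadjusted 0.05 in any of the 9 comparisons. Because each labelled group mixed classes, these tests cannot show that model or treatment left the members unchanged. The labelled models also did not match H2-Ea-ps, and whether the treatment labels hold is not known. These comparisons are therefore between labels, and may not compare those models or treatments. The log2 change of Cda was 0.23 ± 0.48 (SE) in PancO2 against MC38, 0.56 ± 0.48 in PancO2 against CT26 and −0.33 ± 0.48 in CT26 against MC38. For anti-PD-1 against IgG it was 0.05 ± 0.66 in MC38, 0.08 ± 0.53 in CT26 and 0.31 ± 0.57 in PancO2, and for anti-CTLA4 0.21 ± 0.66, 0.59 ± 0.54 and 0.02 ± 0.57. The lowest adjusted p of any member was 0.862 in edgeR. The largest change of a member was that of Upp1 under anti-CTLA4 in PancO2, at −1.11 ± 0.89 log2, where the 4 libraries had 10.2, 11.3, 69.6 and 91.0 CPM against 17.98, 101.5, 125 and 142 CPM under IgG. DESeq2 called 1 or 2 genes in 4 comparisons, none a member, and limma-voom called 0. With all 36 libraries and a class term, Cda was 0.62 ± 0.30 (SE) log2 higher in libraries labelled PancO2 IgG than in those labelled CT26 IgG. The adjusted p was 0.887 in edgeR, and without the shallow library the change was 0.64 ± 0.25 (adjusted p 0.452).

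Upp1 and Tk1 rose with Cda in a fit of 1 common slope over the classes, though not in every class taken alone. A slope of each gene on log2 CPM of Cda, with Cda centred within class and a class term, was fitted by edgeR over 16322 genes. Upp1 had a slope of 0.81 ± 0.24 log2 per log2 (SE; adjusted p 0.0101), and 0.87 ± 0.28 (adjusted p 0.0330) without the shallow library. Tk1 had 0.35 ± 0.07 (adjusted p 0.000596), and 0.29 ± 0.08 (adjusted p 0.0113) without it. Both passed with any 1 of the 36 libraries left out. Of all genes 14.5% passed in the higher and 16.8% in the lower direction, so 6 of 9 members higher and 0 lower stood against a sizeable background. Without the shallow library 8.68% and 6.24% of genes passed, with 2 members higher and 1 lower.

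The other members were less firm. Tymp (slope 0.39), Dck (0.27), Uck1 (0.25) and Tk2 (0.20) passed with all 36 libraries, at adjusted p of 0.0327, 0.0349, 0.0485 and 0.00909 in edgeR. Without the shallow library their slopes were 0.16, 0.18, 0.07 and 0.12, with adjusted p of 0.271, 0.260, 0.535 and 0.140. With 1 library left out at a time, Uck1 missed the threshold in 28 of 36 fits, Dck in 13, Tymp in 4 (without MC38 anti-CTLA4 8, CT26 anti-PD-1 41, PancO2 anti-PD-1 70 or the shallow library) and Tk2 in 1, that without the shallow library. Dctd (0.06 ± 0.10) and Uck2 (0.01 ± 0.09) had slopes near 0. Uckl1, which was high with Cda between classes, had a slope of −0.13 ± 0.08 (adjusted p 0.212), and fell with Cda without the shallow library, by 0.25 ± 0.08 log2 per log2 (adjusted p 0.0228).

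**Figure D5:**
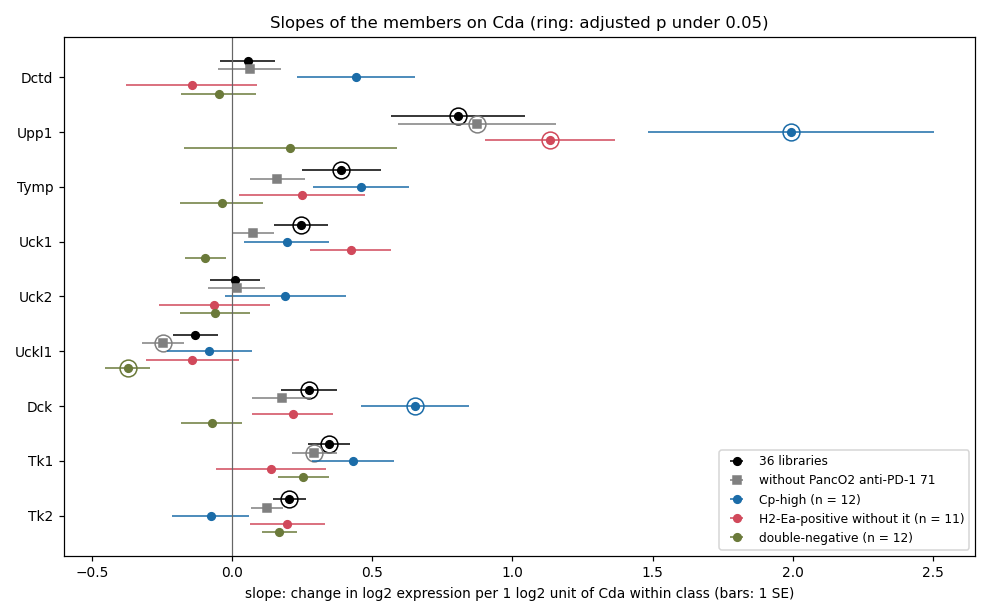
Slope of the 9 other members on Cda within classes (log2 per log2, bars 1 SE) in all 36 libraries, with PancO2 anti-PD-1 71 left out, and in each class alone (the H2-Ea-positive class without that library), with rings at adjusted p under 0.05. Upp1 and Tk1 lie above 0 and are ringed with all libraries and with 1 left out, and Uckl1 lies below 0.

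Fitted for each class alone, fewer genes and members passed in the Cp-high and double-negative classes. Upp1 had a slope of 1.99 ± 0.51 (adjusted p 0.0291) and Dck 0.65 ± 0.19 (adjusted p 0.044) in the Cp-high libraries, where 6.56% of genes passed higher and 4.98% lower. In the H2-Ea-positive libraries 5 members passed (Upp1, Dck, Tk2, Tymp and Uck1), beside 20.8% of genes higher and another 20.8% lower. Without the shallow library only Upp1 did, at 1.13 ± 0.23 (adjusted p 0.0150), beside 5.11% and 6% of genes. In the double-negative libraries Uckl1 alone passed, with a fall of 0.37 ± 0.08 log2 per log2 (adjusted p 0.0152), beside 3.74% of genes higher and 2.25% lower. The slope of Upp1 there was 0.21 ± 0.38, which did not pass. Tk1 passed in no class alone, with slopes of 0.43 ± 0.15 in Cp-high, 0.33 ± 0.13 in H2-Ea-positive (0.14 ± 0.20 without the shallow library) and 0.25 ± 0.09 in double-negative libraries. In a test of the difference among classes, run after these values were seen, 6 members passed beside 44.7% of genes, Uck1, Upp1, Tymp, Dck, Tk2 and Uckl1. With that library left out 1 did, Dck (adjusted p 0.0434), beside 12.5%.

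Correlations within classes describe the same values. Over 36 class-centred libraries, which share their processing and differ in depth and cell make-up, Pearson's r of log2(CPM + 0.5) with Cda was 0.64 for Tk1, 0.53 for Upp1, 0.52 for Tymp, 0.50 for Tk2, 0.46 for Dck, 0.45 for Uck1, 0.11 for Dctd, 0.02 for Uck2 and −0.23 for Uckl1. Without the shallow library r was 0.52 for Tk1 and 0.51 for Upp1, but 0.28 for Tk2, 0.27 for Dck, 0.26 for Tymp and 0.12 for Uck1, and −0.53 for Uckl1. The median r of the 9 members was 0.46 (0.26 without that library), against 0.07 over all genes. By class the median was 0.53 in Cp-high, 0.80 in H2-Ea-positive (0.33 without it) and −0.09 in double-negative libraries, against −0.09, 0.23 (−0.03 without it) and 0.01 over all genes. Medians of Spearman's rho were lower in the Cp-high and H2-Ea-positive classes, at 0.26 and 0.34, and 0.02 in the double-negative class. For Tk1, r in the Cp-high class was 0.66, and 0.12 without the 2 libraries farthest from the median of Cda.

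Other members were also correlated among themselves within classes. Over the same 36 libraries r was 0.63 for Upp1 with Dck and 0.68 for Tk1 with Dck (0.64 and 0.55 without the shallow library), which are as high as those of Cda with Upp1 and Tk1. Uck1 with Tymp fell from 0.81 to 0.31 without that library.

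The genes most like Cda within classes were not salvage enzymes. The highest r over the 36 class-centred libraries were those of Pttg1ip (0.88), Wbp2 (0.88), Gch1 (0.85), the first enzyme of tetrahydrobiopterin synthesis, Cdc42ep2 (0.84) and Zwint (0.84), a kinetochore protein. The lowest were those of Piezo2 (−0.85), a mechanically gated channel, Plekha8 (−0.81), Rfx3 (−0.81), Eml6 (−0.80) and Zfp931 (−0.80). Their class medians varied: Cdc42ep2 had the order of Cda, with 21.7 CPM in Cp-high, 20.5 in H2-Ea-positive and 17.6 in double-negative libraries, while Gch1 had 15.1, 58.2 and 8.91 CPM. Without the shallow library the highest r were those of Pttg1ip (0.85), Pfkp (0.85), Ido2 (0.85), Wbp2 (0.84) and 3110039I08Rik (0.83). Gch1, Cdc42ep2 and Zwint then had 0.81, 0.79 and 0.79. The lowest were then those of Gtf2i (−0.86), Sema6d (−0.82), Abi2 (−0.81), Piezo2 (−0.81) and Zfp532 (−0.81).

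Some of the other pyrimidine genes moved with Cda, in both directions, beside the 14.5% of all genes that passed higher and the 16.8% that passed lower. Without the shallow library these shares were 8.68% and 6.24%. In the list of other salvage enzymes and kinases 2 of 11 tested genes passed higher and 3 lower, with the mitochondrial, interferon-inducible kinase Cmpk2 at 0.81 ± 0.22 (adjusted p 0.00486) and Nme4, a mitochondrial nucleoside diphosphate kinase, at −0.62 ± 0.14 (adjusted p 0.000748). Both passed without the shallow library as well, when the list had 1 higher and 2 lower. Of de novo and deoxynucleotide synthesis 3 of 10 rose (Dut, Rrm2 and Ctps, at 0.41, 0.31 and 0.27) and 0 fell, and 1, Dut, did so without that library. Of breakdown 2 of 8 rose and 1 fell, Upb1 at −2.43, which was −0.13 without that library, when 1 rose and 0 fell. Of the transporters 2 of 5 rose, Slc29a2, the transporter ENT2, at 0.51 ± 0.12 (0.33 ± 0.10 without it) and Slc29a1 at 0.25 (0.094 and no longer past the threshold without it), and 1 fell, Slc28a3 at −1.84 (−0.29 and no longer past it). Nme3 was at 0 in every library. The median slope of all genes was 0.00392.

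Some interferon-response and cell-type genes moved with Cda beside these. The share of all genes that passed was 14.5% higher and 16.8% lower, or 8.68% and 6.24% without the shallow library. Of 14 tested interferon genes 9 rose and 0 fell, and 9 and 0 without the shallow library, when Oas1a was no longer among them, with Gbp2 at 0.92, Oas1a at 0.89 and Irf7 at 0.82 and a median of 0.70. Of 15 proliferation genes 6 rose (2 without that library), with Pcna at 0.32. Of 10 endothelial genes 4 fell (4 without that library, Vwf no longer among them), with Vwf at −0.92, Tie1 at −0.47 and Kdr at −0.37, and Pdgfra at −0.65 was the 1 fibroblast gene of 10 that fell (2 without that library). Of 10 macrophage genes Cd163 (−1.21), Mrc1 (−0.75) and Mertk (−0.50) fell, of which 2 passed without it. Of 5 epithelial genes Krt19 (1.27) and Krt18 (0.78) rose and Epcam fell (−2.46), and 4 rose and 0 fell without it. Of 8 neutrophil genes Il1r2 rose and Cxcr2 fell (0 and 0 without it). None of 9 T cell, 9 muscle, 4 skin or 2 adipocyte genes passed by edgeR's adjusted p. Their part in the slopes of Upp1 and Tk1 was not tested.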

How the data were processed

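RNA of 36 tumours was sequenced as poly-A libraries. The authors deposited whole-number counts per gene, made by their own alignment to mm10 (GRCm38); tools named in their notes are Bowtie2, HTSeq 07.2 and FastQC 0.11.5. The labels name a TruSeq kit and the study's methods another, stranded kit, so the strand setting is not settled; the annotation release is not given in the sources used here. The 5 summary lines of each column, 44.8% to 86.5% of its reads, were left out of totals. Every column was mapped to a sample by its title.

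Members and lists were chosen with earlier results of these data known. Named list genes are up to 3 per direction with the largest slope among those that passed, and the 5 genes at each end of the correlation with Cda, with and without the shallowest library. Classes were set at 10 CPM of H2-Ea-ps and 1000 CPM of Cp. Ranges of classes were compared over genes with a mean of at least 1 CPM. Tests were edgeR 4.0.16 quasi-likelihood fits (filterByExpr, TMM, robust) over all genes, two-sided, with Benjamini-Hochberg adjustment at 0.05; alternatives used DESeq2 1.42.0, limma 3.58.1 and other filters, scalings and libraries. Fits with a class term but without 1 library, and the test of slopes among classes, were added after the data were seen. The fits were tested on simulated data. Apart from the changes put in, each gene had the same mean in all simulated libraries, with no class differences. That test therefore does not show how the labelled comparisons fare in groups of mixed class. Counts per library were 7883106 to 41751023, and a count of 19 for Cda in the shallowest bears a large counting error. Mice were separate, so p-values measure the spread between mice. In the labelled comparisons without a class term, that spread includes the differences between classes mixed within a group.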

Additional observations from a re-analysis of the deposited data

Results flagged for a closer look

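In 6 of 90 sets of 4 libraries (10 members in 9 labelled groups) a library stood apart from the other 3 by Dixon's criterion, which chance alone flags in about 1 in 20. Cda was 20.2 CPM in MC38 anti-CTLA4 8 against 5.04 to 5.38 CPM. Uck2 was 53.5 CPM in MC38 IgG 7 (98.1 to 104.6 CPM in the others) and 101.9 CPM in PancO2 IgG 51 (84.3 to 86.8 CPM). Uckl1 was 24.7 CPM in CT26 anti-PD-1 42 (42.4 to 44.0 CPM), Tk1 60.5 CPM in MC38 anti-CTLA4 14 (79.0 to 80.3 CPM) and Tymp 4.78 CPM in PancO2 anti-CTLA4 62 (3.87 to 3.97 CPM). The class of each library is read from other genes: MC38 anti-CTLA4 8 and MC38 IgG 7 are Cp-high. CT26 anti-PD-1 42, MC38 anti-CTLA4 14 and PancO2 anti-CTLA4 62 are H2-Ea-positive. Each of these was the only library of its class in its group, while PancO2 IgG 51 shared the double-negative class with another. The rate of 1 in 20 assumes 4 like libraries, which groups of mixed class are not.

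The slope on Cda differed among classes for 6 members in edgeR's test, run after the values were seen: Uck1 (adjusted p 0.000111), Tymp (0.00530), Dck (0.00533), Uckl1 (0.0136), Tk2 (0.0273) and Upp1 (0.0388), beside 44.7% of genes. With PancO2 anti-PD-1 71 left out, Dck passed (0.0434), and Uck1 (0.0671) and Upp1 (0.0857) did not, beside 12.5%.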

How the results depend on the processing

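No paired analysis was possible because each mouse number belongs to 1 library. Of 1126 alternatives 980 left the result on its side of the threshold, its count within 1.5 times or its value within 1 SD. All 120 class ratios moved by less than 1 SD, though near-equal medians of Tk1 and Uck2 changed places (5 ratios), and whether the ranges overlapped changed for Cda (TMM and DESeq2 size factors), Uck2 (TMM) and Dck (without PancO2 anti-PD-1 71). For the labelled comparisons, DESeq2 called 1 gene in PancO2 against MC38, 1 in CT26 against MC38, 2 for anti-PD-1 in PancO2 and 2 for anti-CTLA4 in PancO2, and a fit with a class term and with PancO2 anti-PD-1 71 left out called 2 for anti-CTLA4 in CT26. Left-out replicates called 0 everywhere. For the slope on Cda, genes called higher were 1426 without that library, 524 in the double-negative, 918 in the Cp-high and 698 in the H2-Ea-positive class without it (1426 to 2497 with 1 library left out). Genes called lower were 6146 with no filter, 1716 with limma-voom, 1025 without that library, and 316, 697 and 819 in the same classes (1025 to 3169). Members called higher were 3 with at least 10 counts, 3 with limma-voom, 3 without MC38 anti-CTLA4 8, CT26 anti-PD-1 41 or PancO2 anti-PD-1 70, 2 without PancO2 anti-PD-1 71, 0 in the double-negative, 2 in the Cp-high and 1 in the H2-Ea-positive class without it (2 to 6). Members called lower were 1 without it and 1 in the double-negative class (0 to 1). Non-overlapping members of H2-Ea-positive against double-negative were 2 without it. The median r in the H2-Ea-positive class was 0.33 without it and 0.27 without the 2 libraries farthest from the median of Cda. Slopes that turned sign were Uck1 −0.10, Tymp −0.037, Dck −0.073, Dctd −0.048 and Uck2 −0.061 in the double-negative class, Tk2 −0.077 in the Cp-high class, and Uckl1 0.11, Dctd −0.11 and Uck2 −0.10 in the H2-Ea-positive class (Dctd −0.14 and Uck2 −0.063 without that library). Uck2 was −0.0071 with DESeq2 size factors and with DESeq2, and −0.035 with at least 10 counts, and ran from −0.041 to 0.036 with 1 library left out, and Dctd from −0.017 to 0.092. The cause was not tested. Depth limits Cda in the shallowest library, at 19 counts.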
